A study of Arabidopsis thaliana with 5 samples.

Results

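Transcripts of 10 suberin biosynthesis genes were measured in nuclei from Arabidopsis thaliana root tips, in the smr1 mutant and in Col-0. The genes were chosen by locus, 10 of the 33602 loci in the tables, and each was found there: KCS2 (AT1G04220), CYP86A1 (AT5G58860), CYP86B1 (AT5G23190), GPAT5 (AT3G11430), GPAT7 (AT5G06090), FAR1 (AT5G22500), FAR4 (AT3G44540), FAR5 (AT3G44550), ASFT (AT5G41040) and MYB41 (AT4G28110). There were 3 smr1 libraries, replicates 1, 2 and 4, and 2 Col-0 libraries, replicates 2 and 4, which the series' design text calls biological replicates. Seedlings of 5 days were used, and root tips of 0.5 cm were cut. Plants of both genotypes held the SMR1:GUS-GFP reporter, the tips were protoplasted, and 120000 nuclei positive for GFP were sorted. The values therefore describe nuclei in which the reporter was on, from a tip that holds several cell types. Nothing in the sources used here gives the nature of the smr1 allele. Libraries held between 24918795 and 26823753 reads.

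Suberin is a polyester of fatty acids, glycerol and aromatic acids that is laid down against the wall of endodermal, peridermal and seed coat cells, where it limits the passage of water and solutes. In the endodermis of the primary root it follows the Casparian strip, a lignin ring between neighbouring cells, and in Arabidopsis it is known to appear farther from the tip than the strip does. Fatty acids are elongated, oxidised at their far end, esterified to glycerol or reduced to alcohols, and joined to ferulate before export.

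Most of the suberin genes were at or near the limit of detection in both genotypes, while ASFT, with 28 to 46 reads per library, was above it. All 10 together received 319 reads over the 5 libraries, and 180 of these belonged to ASFT. Of 50 values, 10 genes in 5 libraries, 15 were 0. The floor was set at 3 reads per library, which equals between 0.112 and 0.120 CPM (counts scaled to library size), and 4 genes were at or under the floor in every library: CYP86A1, FAR1, FAR5 and MYB41. KCS2 and ASFT alone were above it in every library. Of the 10 genes, 7 had fewer than 10 reads in every library, a share of 70%, against 25% of the 26712 loci that RefSeq annotates as protein-coding. At or under the floor a low level and a level of 0 cannot be told apart, and the floor covers counting error only. Because the samples are bulk nuclei, fewer cells of a type and less RNA per cell cannot be told apart either.

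**Figure D1:**
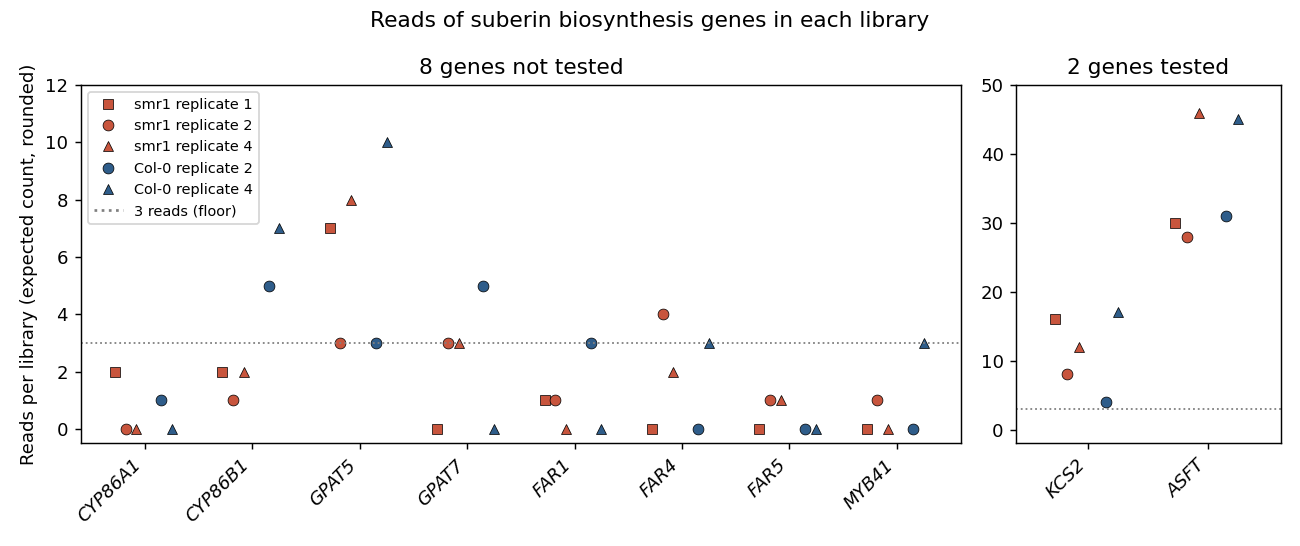
Reads of each suberin gene (y axis, expected count rounded to whole reads) in each library, with smr1 libraries left of Col-0 libraries and the marker shape giving the replicate number; the dotted line is the floor of 3 reads, and the 2 panels have different y axes. ASFT lies between 28 and 46 reads and KCS2 between 4 and 17, while the other 8 genes do not exceed 10 reads in any library.

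The comparison of smr1 with Col-0 addresses which transcripts differ when this inhibitor of cyclin-dependent kinases is mutated. SMR1 itself was at 6.02, 4.70 and 7.06 CPM in smr1 replicates 1, 2 and 4, against 10.97 and 21.6 CPM in Col-0 replicates 2 and 4, with CPM scaled by the TMM factors from here on. The 3 smr1 values of SMR1 were all below the Col-0 values. Its log2 fold change of -1.46 was not called (edgeR adjusted p = 0.724). Over the 20107 genes that passed the expression filter, edgeR called 1 gene, or 0.00497%, at an adjusted p under 0.05, and the median log2 fold change was 0.01. ASFT and KCS2 were the members tested, and 0 of these 2 were called. Neither had an unadjusted p under 0.05, a level at which 3.97% of genes tested were higher and 2.89% lower in smr1. In limma voom the same 2 genes were fitted and 0 were called, and DESeq2 called 0 of 10 but gave no adjusted p for 9 of them. With the filter left out, all 10 genes could be fitted and 0 were called, where 0.0113% of 26589 loci were.

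Sequences can bear on how the reads of 2 of these genes were assigned. ASFT transfers feruloyl groups to hydroxylated fatty acids and so joins the aromatic and aliphatic parts of suberin. The tables list 2 ASFT models, of 1374 and 1326 bases, and both lengths equal the coding lengths in the RefSeq annotation of TAIR10.1. All 1326 bases of the shorter model, AT5G41040.2, are the end of the longer model, AT5G41040.1, which has 48 further bases before them. Those 48 bases, from the start codon of the longer model, are shown with the start codon of the shorter model after them, both start codons in capitals. They lie on the plus strand of chromosome 5, from 16431448 to 16431450 in the first coding exon and then from 16431537 up to the second start codon at 16431582 to 16431584.
AT5G41040.1 start: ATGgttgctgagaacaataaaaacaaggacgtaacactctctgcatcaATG

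A read that does not reach into the 48 bases matches both models. The deposited tables placed the reads almost entirely on a single model in each library, and not on the same model in replicates of a genotype. In smr1, the longer model held 28 and 46 reads in replicates 2 and 4 and 0 in replicate 1, where the shorter model held all 30. In Col-0, the longer model held 44.97 reads in replicate 4 and 0 in replicate 2, where the shorter model held all 31. The choice of model thus varied within both genotypes, and only the sum over the locus is compared here.

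**Figure D2:**
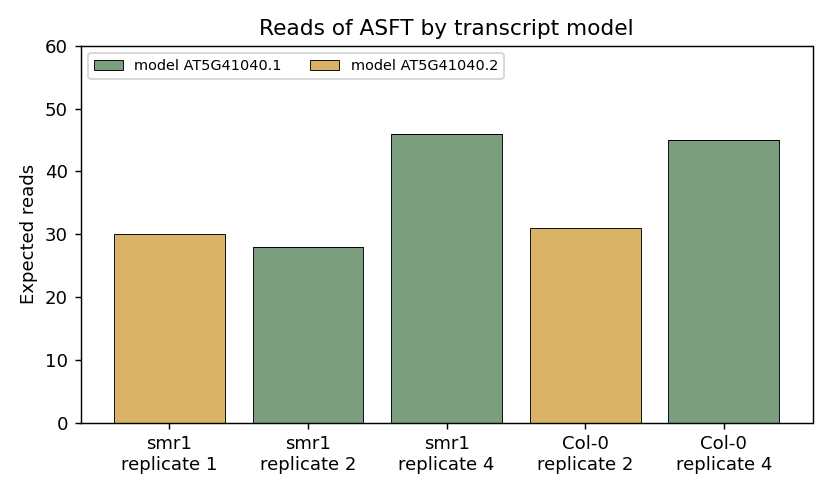
Expected reads of ASFT (y axis) in each library, smr1 to the left of Col-0, stacked by transcript model. The reads of a library stand on 1 model: AT5G41040.2 in smr1 replicate 1 and Col-0 replicate 2, and AT5G41040.1 in the other libraries.

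KCS2 is a condensing enzyme that elongates fatty acids to very long chains. A close relative is KCS20, whose coding sequence was 80.5% identical in a global alignment. The longest run of bases that they share without a mismatch has 53 bases and starts at base 1375 of the KCS2 coding sequence on chromosome 1. This run is shown because a read that falls inside it could come from either gene. Whether any read did so was not tested.
KCS2 and KCS20 shared run: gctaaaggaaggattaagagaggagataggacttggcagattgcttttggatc

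KCS20 received between 3101 and 4654 reads per library, against 4 to 17 for KCS2. KCS2 had expected counts that were not whole, 16.004 and 4.001, in smr1 replicate 1 and Col-0 replicate 2. The source of these small fractions was not tested. Other pairs shared shorter runs. FAR1 and FAR4 were 76.7% identical with a longest run of 28 bases, FAR1 and FAR5 72.0% with 23, and FAR4 and FAR5 73.0% with 17. GPAT5 and GPAT7 were 77.9% identical with a longest run of 17 bases. CYP86A1 and CYP86B1, of different subfamilies, were 55.1% identical.

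Per coding length, the levels of the genes ran over 2 orders of size, and most neighbours in that order overlapped. Mean TPM, the length-scaled abundance that the authors deposited, over the 5 libraries was 0.752 for ASFT, 0.200 for KCS2, 0.115 for GPAT5, 0.0559 for CYP86B1 and 0.0411 for GPAT7. It was 0.0357 for FAR4, 0.0287 for MYB41, 0.0196 for FAR1, 0.0114 for CYP86A1 and 0.00735 for FAR5. ASFT, from 0.572 to 0.915 TPM, lay above KCS2, from 0.0725 to 0.297 TPM, in every library. Below ASFT every pair of neighbours overlapped in its range over libraries. Of the protein-coding loci, 35.6% had a lower mean TPM than ASFT and 11.2% a lower mean than FAR5.

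For the elongase KCS2, the reads were 16, 8 and 12 in smr1 replicates 1, 2 and 4, against 4 and 17 in Col-0 replicates 2 and 4. Both the lowest and the highest value were Col-0 libraries, so the groups overlapped, where 23.8% of genes tested did not overlap. Its level averaged 0.454 ± 0.165 CPM in smr1 (SD, n = 3) and 0.401 ± 0.335 CPM in Col-0 (SD, n = 2). The log2 fold change was 0.15 with a standard error of 0.635 and a 95% interval from -1.37 to 1.67 (edgeR adjusted p = 0.972). The sign depended on single libraries. The log2 fold change was -0.50 with Col-0 replicate 2 left out, -0.14 with smr1 replicate 1 left out, and 1.43 with Col-0 replicate 4 left out. A difference of 2-fold in either direction lies inside the interval.

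The oxidases CYP86A1 and CYP86B1 hydroxylate the far end of fatty acids, CYP86A1 acting on long chains and CYP86B1 on very long chains. CYP86A1 had 2, 0 and 0 reads in smr1 replicates 1, 2 and 4, against 1 and 0 reads in Col-0 replicates 2 and 4, so the groups overlapped and no library exceeded the floor. CYP86B1 had 2, 1 and 2 reads in smr1, against 5 and 7 reads in Col-0. It was the single member of the 10 whose groups did not overlap, with all smr1 libraries below both Col-0 libraries and all at or under the floor. Of the 26589 loci with a read, 9.55% had every smr1 library below both Col-0 libraries, and 21.3% did not overlap in either direction. Among the 2008 loci with 10 to 30 reads in all, as CYP86B1 has, the share below was 9.21%. Means were 0.0629 ± 0.0226 CPM in smr1 (SD, n = 3) and 0.234 ± 0.0404 CPM in Col-0 (SD, n = 2). Pooled over libraries there were 5 reads in smr1 and 12 in Col-0. The ratio of smr1 to Col-0 per read of library was 0.266, with an exact 95% interval from 0.0735 to 0.812 that covers counting error only and not the spread between libraries. CYP86B1 did not pass the expression filter. Without the filter its log2 fold change was -1.83 with a standard error of 0.80, an unadjusted p of 0.047 and an edgeR adjusted p of 0.844, where 2.5% of loci had an unadjusted p under 0.05 in the same direction.

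The acyltransferases GPAT5 and GPAT7 attach fatty acids to glycerol 3-phosphate, and GPAT7 is known as induced by wounding. GPAT5 had 7, 3 and 8 reads in smr1 replicates 1, 2 and 4, against 3 and 10 reads in Col-0 replicates 2 and 4. Replicate 2 of each genotype was at the floor and the other libraries were above it, so the groups overlapped. The pooled ratio of smr1 to Col-0 was 0.885, with a counting interval from 0.410 to 1.97. GPAT7 had 0, 3 and 3 reads in smr1, against 5 and 0 reads in Col-0, and Col-0 replicate 2 was its single library above the floor, so the groups overlapped.

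The reductases FAR1, FAR4 and FAR5 turn fatty acyl chains into primary alcohols, each preferring another chain length. FAR1 had 1, 1 and 0 reads in smr1 replicates 1, 2 and 4, against 3 and 0 reads in Col-0 replicates 2 and 4. FAR4 had 0, 4 and 2 reads in smr1, against 0 and 3 reads in Col-0, and exceeded the floor in smr1 replicate 2 only. Those 4 reads were all placed on the model AT3G44540.2, and the FAR4 reads of the other libraries on AT3G44540.1. FAR5 had 0, 1 and 1 reads in smr1, against 0 and 0 reads in Col-0. No fold is given for FAR5, since both groups were under the floor, and the groups of FAR1 and FAR4 overlapped.

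ASFT, the most abundant of the 10, had 30, 28 and 46 reads in smr1 replicates 1, 2 and 4, against 31 and 45 reads in Col-0 replicates 2 and 4. In both genotypes replicate 4 was the highest library, and the groups overlapped over nearly their whole range. Its level averaged 1.30 ± 0.346 CPM in smr1 (SD, n = 3) and 1.48 ± 0.293 CPM in Col-0 (SD, n = 2). The log2 fold change was -0.19 with a standard error of 0.32 and a 95% interval from -0.95 to 0.57 (edgeR adjusted p = 0.923). It was 0.02 without Col-0 replicate 4 and -0.42 without smr1 replicate 4. In this fit a fall to 0.5-fold in smr1 lies just outside the interval, and a rise to 2-fold also lies outside it. In DESeq2 the log2 fold change was -0.20 with a larger standard error of 0.437. A fall to 0.5-fold is therefore not excluded.

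MYB41 is a transcription factor that can switch on suberin formation when overexpressed. It had 0, 1 and 0 reads in smr1 replicates 1, 2 and 4, against 0 and 3 reads in Col-0 replicates 2 and 4. Both genotypes held libraries at 0, so the groups overlapped, and no library exceeded the floor.

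Summed over the 10 genes, the libraries held 58, 50 and 74 reads in smr1 replicates 1, 2 and 4, against 52 and 85 reads in Col-0 replicates 2 and 4. Scaled, these were 2.27, 1.85 and 2.72 CPM in smr1, against 2.14 and 3.19 CPM in Col-0, and the groups overlapped. ASFT made up between 51.7% and 62.2% of the sum in every library. Without ASFT and KCS2, the other 8 genes summed to 0.469, 0.518 and 0.588 CPM in smr1, against 0.698 and 0.863 CPM in Col-0. That sum did not overlap between the genotypes, from 12, 14 and 16 reads in smr1 and 17 and 23 in Col-0. These 8 are the members that did not pass the expression filter, so the set was formed from these data. Among single loci with a read, 9.55% had every smr1 library below both Col-0 libraries, and no such share was computed for sums. The exact 95% counting interval of each library held the values of at least 1 library of the other genotype. With CYP86B1 also left out, the remaining 7 genes summed to 0.391, 0.481 and 0.515 CPM in smr1, against 0.493 and 0.600 CPM in Col-0, which overlapped. The median log2 fold change of the 2 tested genes was -0.02, against 0.01 over all genes tested.

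The same libraries held transcripts of the endodermis and its Casparian strip. Of 9 such genes, 9 passed the filter and 0 were called in either direction or had an unadjusted p under 0.05 in edgeR, and DESeq2 and limma voom called 0, with a median log2 fold change of 0.05. Their summed level was 66.1, 54.3 and 59.1 TPM in smr1 replicates 1, 2 and 4, against 42.7 and 72.3 TPM in Col-0 replicates 2 and 4. The 10 suberin genes summed to 1.21, 0.999 and 1.40 TPM in smr1, against 1.08 and 1.64 TPM in Col-0. Within each library the endodermis and strip genes thus exceeded the suberin genes 54.6-, 54.4- and 42.2-fold in smr1, against 39.6- and 44.0-fold in Col-0. These ratios overlapped between the genotypes. CASP1, a scaffold protein of the strip that is named after its values were seen, was at 9.46, 8.33 and 7.83 CPM in smr1, against 7.02 and 11.2 CPM in Col-0. The transcription factor SCR, which specifies the endodermis, was at 10.7, 6.77 and 8.94 CPM in smr1, against 6.20 and 9.37 CPM in Col-0. SCR had a log2 fold change of 0.18, and -0.10 without Col-0 replicate 2. For the list, the median was -0.33 with Col-0 replicate 2 left out and 0.32 with Col-0 replicate 4 left out. ASFT, KCS2, GPAT5 and CYP86B1, the 4 members with reads in every library, were also lower in Col-0 replicate 2 than in Col-0 replicate 4. FAR4 and MYB41 were lower there too, each with 0 reads against 3. GPAT7, FAR1 and CYP86A1 went the other way, with 5, 3 and 1 reads against 0. The part of endodermal content in the values of the suberin genes was not tested.

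**Figure D3:**
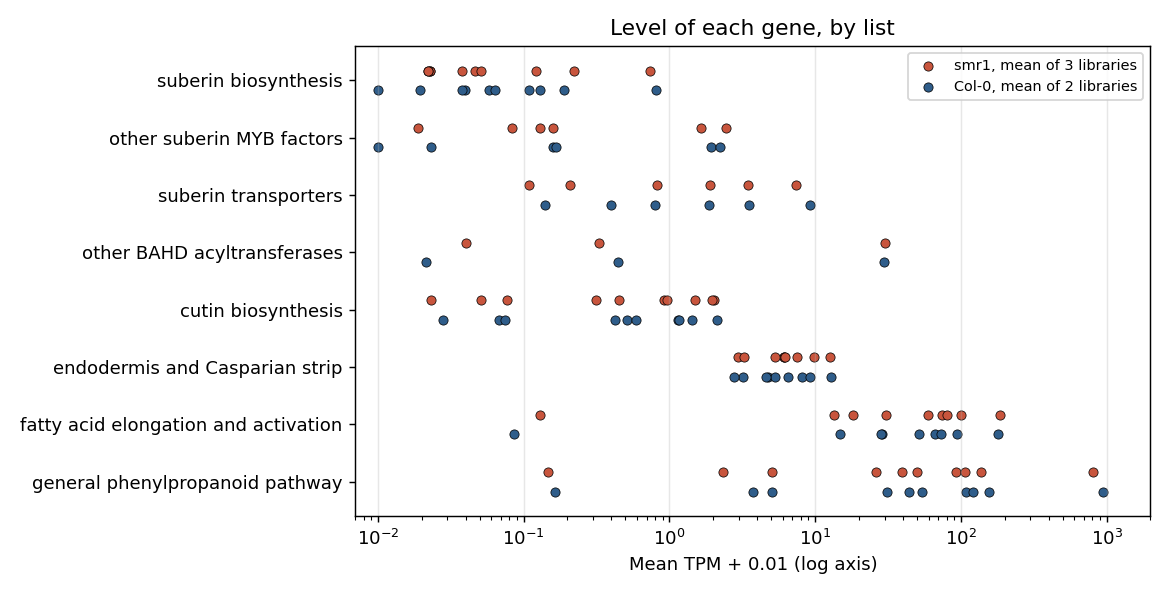
Mean TPM plus 0.01 on a log axis for each gene of 8 lists, with the mean of 3 smr1 libraries above the mean of 2 Col-0 libraries in each row; 0.01 is added so that genes at 0 can be drawn. The 10 suberin genes lie below 1 TPM, while the 9 endodermis and Casparian strip genes lie above 2 TPM in both genotypes.

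Genes on either side of the suberin enzymes were measured at unequal levels. Of 6 other MYB factors linked to suberin, MYB9 and MYB92 passed the filter, and 0 were called by edgeR, DESeq2 or limma voom or had an unadjusted p under 0.05 in edgeR, while MYB39, MYB53, MYB93 and MYB107 did not pass it. MYB92 was at 4.38, 2.74 and 2.10 CPM in smr1 replicates 1, 2 and 4, against 2.51 and 2.51 CPM in Col-0 replicates 2 and 4. Its log2 fold change of 0.29 rested on smr1 replicate 1, without which it was -0.05. MYB9 was at 1.80, 2.33 and 2.10 CPM in smr1, against 3.24 and 2.59 CPM in Col-0. The smr1 values of MYB9 were all below the Col-0 values, as in 10.1% of the genes tested, with a log2 fold change of -0.49 (edgeR adjusted p = 0.730).

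Export of suberin building blocks relies on ABC transporters of the G group. All 6 on the list passed the filter, 0 were called by edgeR, DESeq2 or limma voom, and the median log2 fold change was -0.24. All 6 were negative, as were 9804 of the 20107 genes tested. For 2 of the 6 every smr1 library was below both Col-0 libraries, as in 10.1% of genes tested. Without Col-0 replicate 2, 5 were negative, and ABCG1, named after its values were seen, moved from -0.38 to 0.58. ABCG6 was at 11.2, 10.8 and 9.27 CPM in smr1, against 10.9 and 11.5 CPM in Col-0, and ABCG20 at 6.33, 5.74 and 5.52 CPM in smr1, against 6.20 and 5.85 CPM in Col-0. Both are transporters of root and seed coat suberin, named after their values were seen, and their groups overlapped, with log2 fold changes of -0.10 (95% interval -0.46 to 0.25) and -0.04 (-0.43 to 0.35). ABCG16 had the smallest p of the list and was at 0.782, 0.629 and 0.404 CPM in smr1, against 1.44 and 1.09 CPM in Col-0. Its log2 fold change was -1.06 with a standard error of 0.37 and an edgeR unadjusted p of 0.026. It was the single gene of the list with an unadjusted p under 0.05, where 2.89% of genes tested were lower at that level. ABCG16 was not called (edgeR adjusted p = 0.724). ABCG2, the next, was at 0.352, 0.222 and 0.368 CPM in smr1, against 0.452 and 0.412 CPM in Col-0 (log2 fold change -0.46).

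**Figure D4:**
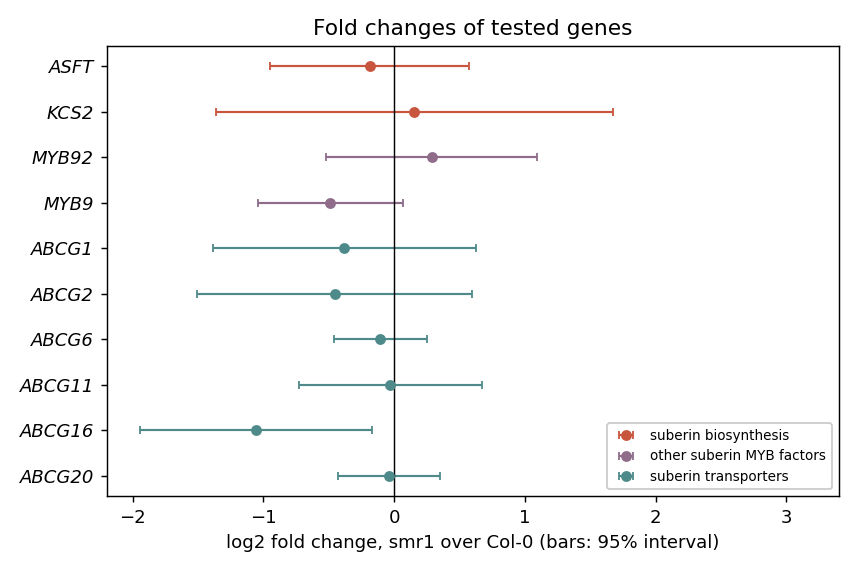
Log2 fold change of smr1 over Col-0 from edgeR, with 95% intervals as bars, for the tested genes of the suberin, MYB factor and transporter lists. The intervals of ASFT and KCS2 span 0, and the interval of ABCG16 lies below 0 without passing the adjustment over all genes.

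All 9 genes of fatty acid elongation and activation, steps that wax and membrane lipids share, had 10 or more reads in some library. Of the 9, 8 passed the filter and 0 were called by edgeR, DESeq2 or limma voom. At an unadjusted p under 0.05 in edgeR 1 was lower, as were 2.89% of genes tested. The median log2 fold change was 0.04, or -0.03 without smr1 replicate 4. KCS20 was at 165.3, 140.2 and 171.1 CPM in smr1, against 127.4 and 168.1 CPM in Col-0. Per length it stood at 74.2 ± 7.39 TPM in smr1 (SD, n = 3) and 66.1 ± 14.1 TPM in Col-0 (SD, n = 2), where KCS2 stood at 0.213 ± 0.0796 TPM in smr1 and 0.181 ± 0.153 TPM in Col-0. The gene with that p was the condensing enzyme KCS1, at 32.7, 50.3 and 33.6 CPM in smr1, against 75.5 and 53.2 CPM in Col-0. Its log2 fold change was -0.73 (unadjusted p = 0.018, edgeR adjusted p = 0.724), and -0.46 without Col-0 replicate 2. LACS1, which activates fatty acids, had -0.22, and 0.04 without Col-0 replicate 4.

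All 10 genes of the general phenylpropanoid pathway, the source of ferulate, passed the filter. The count called by edgeR, DESeq2 or limma voom was 0 and that with an unadjusted p under 0.05 in edgeR was 0, all had negative log2 fold changes, where 9804 of 20107 genes tested had, and the median was -0.25. CCoAOMT1, which methylates the precursor of feruloyl-CoA, was at 834.0, 665.9 and 713.4 CPM in smr1, against 837.6 and 971.8 CPM in Col-0 (log2 fold change -0.29, edgeR adjusted p = 0.730). PAL1, the entry enzyme, had a log2 fold change of -0.30, and -0.07 without Col-0 replicate 4. Without that library the median of the list was -0.04 and 7 of 10 genes were negative. These genes also serve lignin. Of the xylem markers, 6 of 6 were tested with 0 called. At an unadjusted p under 0.05 in edgeR 2 were lower, as were 2.89% of genes tested. The median of the xylem markers was -0.22, with CESA8 and CESA4, cellulose synthases of the secondary wall, at -0.28 and -0.25. Of the 6, 1 was positive, VND7 at 0.16, named after its values were seen. The smr1 values of VND7 were all above the Col-0 values, as in 13.7% of genes tested. For 4 other xylem markers they were all below, as in 10.1% of genes tested. The summed level of the xylem markers was 1557, 1745 and 1902 CPM in smr1, against 2090 and 1961 CPM in Col-0, and their part in the values of the pathway was not tested. Of 3 other acyltransferases of the family of ASFT, 2 were tested. Of these, 0 were called by edgeR, DESeq2 or limma voom and 0 had an unadjusted p under 0.05 in edgeR. DESeq2 gave FACT no adjusted p and so could not call it. FACT, which makes fatty alcohol caffeates, was at 0.274, 0.629 and 0.699 CPM in smr1, against 0.452 and 1.05 CPM in Col-0, and HCT of lignin synthesis had a log2 fold change of -0.04. Both turned positive without Col-0 replicate 4, at 0.24 and 0.14.

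Suberin genes are known to respond to the stress hormone ABA, so ABA response genes were set beside them. Of 13, 11 passed the filter, 0 were called by edgeR, DESeq2 or limma voom, and the median log2 fold change was -0.54. At an unadjusted p under 0.05 in edgeR 2 were lower, as were 2.89% of genes tested, and all 11 were negative, as were 9804 of the 20107 genes tested. ABI1, a phosphatase of ABA signalling, was at 284.1, 405.1 and 319.1 CPM in smr1, against 576.9 and 427.8 CPM in Col-0 (log2 fold change -0.58, edgeR adjusted p = 0.724). RD29A, a marker of ABA and cold, was at 140.9, 260.8 and 157.1 CPM in smr1, against 551.6 and 208.8 CPM in Col-0, with a log2 fold change of -1.03 that was -0.17 without Col-0 replicate 2. Without that library the median of the list was -0.16 and 7 genes were negative. That library had the highest RD29A and the lower of the 2 Col-0 values for the 4 suberin genes with reads in every library. For GPAT7, FAR1 and CYP86A1 it had the higher of the 2 Col-0 values, at 5, 3 and 1 reads against 0.

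Markers of other cell types also passed the filter, and edgeR called 0 of them. For root hair markers, 5 of 5 tested, 1 was lower at an unadjusted p under 0.05 in edgeR, as were 2.89% of genes tested. Their median log2 fold change was -0.35, with EXPA18 at -0.70 and PRP3 at -0.35. That median was -0.14 without Col-0 replicate 4, with 2 of 5 positive, and -0.16 without smr1 replicate 2, and PRP3 was then at -0.17 and -0.16. Root cap markers, 4 of 4 tested with 0 at that level, had a median of 0.41, with FEZ at 0.63 and BRN2 at 0.45. SMB, named after its values were seen, was the lowest of the 4 at 0.02, and at -0.21 without smr1 replicate 2. Phloem markers, 3 of 3 tested with 0 at that level, had a median of -0.13 that was 0.42 without Col-0 replicate 2 and 0.23 without smr1 replicate 1, with APL at 0.47 and SUC2 at -0.15. Division markers, 5 of 5 tested with 2 higher at that level, where 3.97% of genes tested were, had a median of 0.70. Of these, CDKB1;1 and HIS4, at 1.34 and 0.79, were not called by edgeR (adjusted p = 0.724 for each). Both were called higher by DESeq2, with adjusted p of 0.00267 and 0.0115. Over all 26589 loci fitted, DESeq2 called 30 higher and 11 lower and gave no adjusted p for 8764. The part of these markers in the values of the suberin genes was not tested.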

How the data were processed

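RNA from sorted nuclei was sequenced after stranded mRNA library preparation, per the labels' protocols. The submitters' processing notes list Salmon 0.7.2, CASAVA and TAIR10 and give no role for any. The deposited tables hold an expected count of reads and a TPM value for each of 41671 transcript models, with their lengths, per the file headers. For strand setting and read filters, nothing is given in the sources used here. A length divisible by 3 was found for 93.36% of models, so lengths are called coding lengths, and reads from untranslated regions may be uncounted. Of 34613 models matched by name, 96.5% had the coding length of the RefSeq annotation of TAIR10.1, from which sequences were read. RefSeq had an entry for 32835 of 33602 loci.

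Expected counts were summed per locus and rounded to whole numbers. The test was edgeR 4.0.16 under R 4.3.3, with its expression filter (minimum count 10, minimum total 15), TMM factors and robust quasi-likelihood F tests on genotype, two-sided, adjusted by Benjamini-Hochberg, called under 0.05, on 3 residual degrees of freedom. Standard errors came from the F statistic, and 95% intervals from these and the test's degrees of freedom. limma 3.58.1 (voom) and DESeq2 1.42.0 (without the filter) were alternatives. Scripts were tested on simulated data. DESeq2 gave no adjusted p for 9 of the 10 suberin genes. It likewise gave none for some genes that edgeR tested in the transporter, acyltransferase, phenylpropanoid, cutin and ABA lists. Such genes could not be called by DESeq2. Whether replicates came from separate cultures is stated only by the word biological, and p-values measure the spread between these libraries. Counting intervals are exact Poisson or binomial.

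Members and lists were chosen with earlier results of these data known. All 10 members are named. Of the other 14 lists, members past the threshold are named, otherwise up to 2 with the smallest p, and 1 gene that this rule names is not reported here. Of 106 names written, 104 stood in the annotation, and SGN1 and CYP86B2 were dropped.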

Additional observations from a re-analysis of the deposited data

How the results depend on the processing

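The count of genes called over all genes, 1 in the fit reported, was 1 with RLE size factors, 41 with DESeq2, 0 with limma voom, 3 without the expression filter and 2 with the replicate number as a block, and 0 when any library was left out. The count of suberin genes called was 0 under each of these, with between 2 and 10 genes fitted. At an unadjusted p under 0.05, CYP86B1 was the single suberin gene, in the fit without the filter. The median log2 fold change of the suberin genes tested ran from -0.50 to 0.72 with a library left out, the highest without Col-0 replicate 4, and stayed within the spread between replicates under the other settings. KCS2 had a log2 fold change of -0.0462 with the replicate block, and between -0.50 and 1.43 with a library left out, negative without Col-0 replicate 2 and without smr1 replicate 1 (-0.14). ASFT ran between -0.42 and 0.0223 with a library left out, positive without Col-0 replicate 4. The cause was not tested. The replicate numbers are shared by 2 pairs of libraries. Across genes, the deviations from the group means correlated at 0.40 for number 2 and 0.19 for number 4. Col-0 replicate 4 and smr1 replicate 1, of unlike numbers, correlated at 0.17, and the other unlike pairs had negative values. With 2 Col-0 libraries the deviations of one mirror those of the other, so these values are not independent and cannot decide on pairing. With only 2 shared numbers the libraries were not taken as pairs. Limits of 5 and 20 reads, chosen after seeing the data, left 5 and 9 of the 10 genes under the limit in every library, and leaving out a library left 7 or 8 under 10 reads. Depth limits 8 of the 10 genes, which had too few reads for the filter, and for all 10 the groups hold only 3 and 2 libraries.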

Other observations

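Relatives of the suberin enzymes that serve other lipid barriers gave a mixed picture. Of 5 other alcohol-forming reductases, 4 had fewer than 10 reads in every library, and FAR7 had 0 reads throughout. The exception was FAR3, also called CER4, which makes primary alcohols of shoot wax. It was at 232.8, 198.9 and 216.0 CPM in smr1 replicates 1, 2 and 4, against 208.4 and 401.0 CPM in Col-0 replicates 2 and 4. Per length it stood at 109.2 ± 9.47 TPM in smr1 (SD, n = 3) and 147.9 ± 68.6 TPM in Col-0 (SD, n = 2), while FAR1, FAR4 and FAR5 did not exceed 0.0870 TPM in any library. The coding sequences of FAR1 and FAR3 were 59.7% identical with a longest shared run of 17 bases. The log2 fold change of FAR3 was -0.50 (edgeR adjusted p = 0.733), and 0.04 without Col-0 replicate 4.

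Cutin, the related polyester of the shoot and root cap surface, uses its own acyltransferases and oxidases. Of 10 cutin genes, 7 were tested, with 0 called by edgeR, DESeq2 or limma voom and 0 at an unadjusted p under 0.05 in edgeR, and with 3 positive and 4 negative and a median log2 fold change of -0.14. The median was 0.33 without Col-0 replicate 2 and 0.02 without smr1 replicate 1 or 2, with 4 positive and 3 negative each time. HTH, linked to cutin synthesis, was at 2.31, 1.81 and 2.91 CPM in smr1, against 1.68 and 1.24 CPM in Col-0, with a log2 fold change of 0.68. DCR, a cutin acyltransferase, was at 3.56, 4.03 and 3.75 CPM in smr1, against 2.75 and 3.0 CPM in Col-0, with a log2 fold change of 0.39. The smr1 values of both were all above the Col-0 values, as in 13.7% of the genes tested, and neither passed (edgeR adjusted p = 0.726 for HTH and 0.730 for DCR). The oxidase CYP86A2, named after its values were seen, was at 4.81, 4.55 and 4.19 CPM in smr1, against 6.90 and 3.11 CPM in Col-0, above CYP86A1 of suberin in every library.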
